A study of Mus musculus with 6 samples.

Results

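The sequences described here are the small RNAs of skeletal muscle that mapped to the nuclear genome but that the deposited counting assigned to no annotated RNA. They were all entries of the table of unannotated mappable sequences, without those on the mitochondrial chromosome, in the Dlk1-Dio3 region and at both miR-1a/miR-133a loci. This left 1263 of 1832 entries, each a distinct sequence of 16 to 45 bases (median 22), at 532 positions. The groups were TAC 1, 2 and 3, from male C57BL6 mice with transverse aortic constriction, an operation that narrows the aorta and loads the heart, and Sham 1, 2 and 3, labelled as controls. All mice were 16 weeks old, ate normal chow and were treated for 8 weeks, while the protocol gives 8 to 10 weeks after surgery. The labels do not name the muscle and do not say whether each library came from its own animal, so the p-values measure the spread between these libraries only.

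Libraries were made from 100 ng of total RNA with unique molecular identifiers (UMIs), random tags that let copies of 1 molecule be counted once. The 1263 sequences held 39484, 31195 and 35498 UMIs in TAC 1 to 3 and 53592, 43222 and 18881 UMIs in Sham 1 to 3. Levels are given as UMIs per 1000000 miRNA UMIs of the same library (UPM), and the miRNA totals were 2145221 to 2874724 UMIs in TAC and 1179365 to 3440232 UMIs in Sham libraries. Sham 3 was the shallowest library. The tissue label was set against miR-1a-3p, a muscle miRNA, which took 43.3% to 50.2% of miRNA UMIs in TAC and 41.1% to 48.7% in Sham libraries. A miRNA of muscle in general cannot tell skeletal muscle from heart, so this covers only the muscle part of the label.

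A mature miRNA is cut from a hairpin precursor by Drosha and Dicer, and its bases 2 to 8, the seed, select its targets. Its ends are often trimmed or extended, and a read with a changed base can be placed at the hairpin, at a look-alike site or nowhere. Mitochondrial ribosomal and transfer RNAs are processed from long transcripts, the ribosomal RNAs receive short runs of A at the 3′ end, and every mature transfer RNA (tRNA) ends in CCA, which is added after transcription and is not in nuclear tRNA genes. Long double-stranded RNA can be cut by Dicer into small interfering RNAs of about the length of a miRNA, from both strands.

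The first sequences shown lay at both ends of a stretch of 1418 bases on chromosome 2, chr2:5019794-5021211. They are shown because this group had the largest fold difference between TAC and Sham of the 9 groups given below. It was drawn by position, after its values were seen, and the other groups mainly by sequence. Its rank is therefore no support for a difference. The stretch takes in the 3′ end of Optn, which encodes the autophagy receptor optineurin and is transcribed from the minus strand, and the ground downstream of it. In each pair below the capitals mark a run of letters that a plus-strand and a minus-strand sequence share when each is read 5′ to 3′, as the deposited table gives them.
chr2:5019969-5019989 plus: TGTGTGTAATTCTGTGGAAGT
chr2:5021035-5021056 minus: TGTGTGTAATTCTGTGGAAGTt
chr2:5021080-5021100 plus: gATTTACCTAGAAAAACACTG
chr2:5019924-5019944 minus: ATTTACCTAGAAAAACACTGc
The first pair shared 21 letters and its 5′ ends lay 1087 bases apart, and the second pair shared 20 letters and lay 1136 bases apart. Letters read from the plus strand at one end of the stretch thus recur on the minus strand at the other. Of the 90 plus and minus combinations here, 4 shared a run of at least 12 letters.

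The next sequences are shown because sequences of their kind held 29.6% of all UMIs counted here. They begin with letters of mt-Rnr2, the large ribosomal RNA of the mitochondrion, stop matching it after transcript base 1390 or 1161, and go on with a run of A, shown in capitals. Each was placed on a nuclear chromosome.
chr3:129386839-129386857 minus: taatggttcgtttgtAAAA
chr3:129386837-129386857 minus: taatggttcgtttgtAAAAAA
chr16:64624880-64624902 minus: aatggttcgtttgtAAAAAAAAA
chr15:64219289-64219306 minus: gaaatttcggttgggAAA
chr19:31086969-31086985 plus: aatttcggttgggAAAA
chr19:31086969-31086990 plus: aatttcggttgggAAAAAAAAA
The first 3 stop at base 1390 and the others at base 1161. A stop at base 1161 lies inside the RNA, because the RNA reaches at least base 1390. Whether either run of A is the run added at the 3′ end of the ribosomal RNA was not tested.

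The largest group by number were miRNAs with a changed base at their own hairpin. The RefSeq mature form (GRCm38.p6) is shown with its seed in capitals, followed by the most counted deposited variants with the substituted base in capitals. Tokens such as A5G give the hairpin base, the position from base 1 of the mature miRNA and the base in the deposited sequence.
miR-206-3p, RefSeq: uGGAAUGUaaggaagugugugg
A5G: tggaGtgtaaggaagtgtgtgg
G11T: tggaatgtaaTgaagtgtgtgg
miR-10b-5p, RefSeq: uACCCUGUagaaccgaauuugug
A11C: taccctgtagCaccgaatttgt
T6A: tacccAgtagaaccgaatttgt
miR-30a-5p, RefSeq: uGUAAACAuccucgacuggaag
C10T: tgtaaacatTctcgactggaag
G2C: tCtaaacatcctcgactggaagct
miR-22-3p, RefSeq: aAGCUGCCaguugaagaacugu
C8T: aagctgcTagttgaagaactgt
The hairpins lie at chr1:20679010-20679082 (Mir206), chr2:74726070-74726137 (Mir10b) and chr1:23272269-23272339 (Mir30a).

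Fragments of tRNA 3′ ends are shown because 1 of them was the only sequence to pass the test. The terminal CCA is in capitals.
chr1:171045019-171045058 plus, glycine tRNA gene n-TGgcc4: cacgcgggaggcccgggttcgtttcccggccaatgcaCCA
chr10:30811178-30811214 plus, glutamate tRNA gene n-TEctc9: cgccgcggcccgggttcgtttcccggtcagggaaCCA
chr5:30888153-30888174 plus, tyrosine tRNA gene n-TYgta9: tcgattccggctcgaaggaCCA
chr13:14820763-14820779 plus, kin of mitochondrial mt-Tv: aatgaacactctgaCCA

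By the letters of the sequences, most of these nuclear entries resembled an RNA that is annotated elsewhere. Kin of a miRNA lay within 3 edits of a hairpin for sequences of 20 bases or more, 2 edits for 18 or 19 bases and 1 edit for 16 or 17 bases. Kin of a mitochondrial ribosomal or transfer RNA shared an exact run of at least 13 bases with it from near the 5′ end. The miRNA kin placed in a hairpin numbered 698 and held 34.8% of UMIs, and 77 kin of mt-Rnr2 held 29.6%. Kin of miR-1 placed away from the miR-1 loci numbered 110 and held 12.2%, while 169 sequences with no kin by these rules held 9.15%. That last group is not free of annotated RNAs. It took in fragments of 18S ribosomal RNA and Rmrp, and A-tailed forms that matched mt-Rnr2 for fewer than 13 bases. Smaller groups were 53 kin of sequences listed on the mitochondrial chromosome, 24 kin of mitochondrial tRNAs, 48 tRNA gene fragments or sequences ending in CCA, 65 kin of other miRNAs placed elsewhere and the 19 sequences at Optn. Where the RNA molecules came from was not tested, since no genome sequence was used here.

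**Figure D1:**
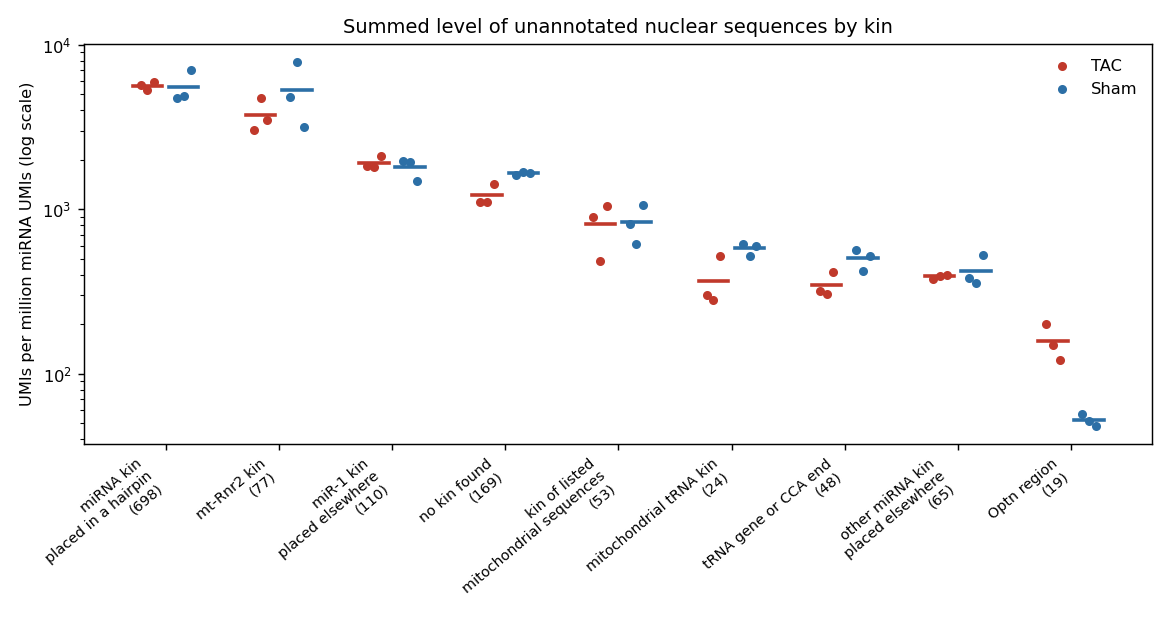
Summed level of each kin group in every library, in UPM (UMIs per 1000000 miRNA UMIs) on a log axis, with the number of sequences in brackets; points are libraries and bars are group means. The Optn region stands at 122 to 202 in the TAC libraries and 48.3 to 57.3 in the Sham libraries, and the mt-Rnr2 kin overlap between groups.

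The small RNAs at Optn were about 3 times as abundant in TAC as in Sham muscle. Their summed level was 202, 151 and 122 UPM in TAC 1 to 3, and 57.3, 51.7 and 48.3 UPM in Sham 1 to 3. Every TAC library stood above every Sham library, and the ratio of the means was 3.02. The group was singled out after its values were seen, so its sum has no test. The 19 sequences were 21 to 24 bases long, 9 placed on the plus and 10 on the minus strand, and 14 began with T. Of them, 6 lay in the sense direction within the annotated 3′ UTR of Optn (chr2:5020642-5021353 in GENCODE M21), 5 lay antisense to it, and the other 8 lay outside any annotated gene.

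**Figure D2:**
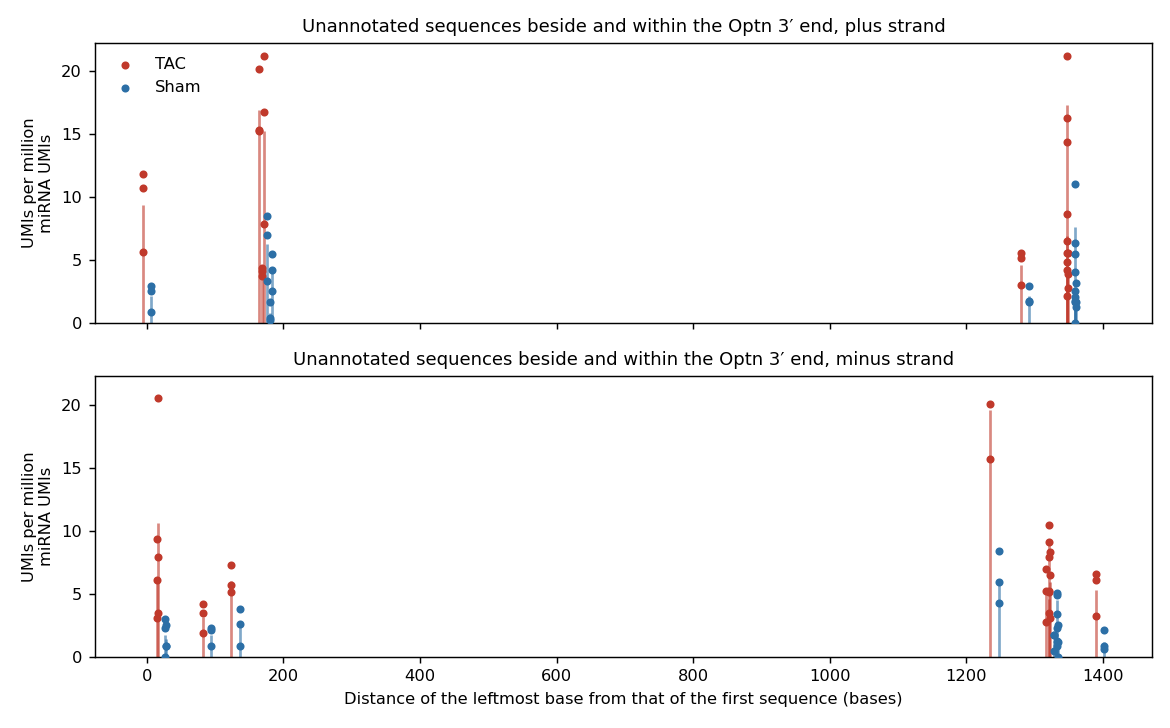
Level of each unannotated sequence at the 3′ end of Optn against the distance of its leftmost base from that of the first sequence, in UPM (UMIs per 1000000 miRNA UMIs), with the plus strand above and the minus strand below; points are libraries and stems are group means, drawn slightly apart. Sequences placed on both strands sit at both ends of the stretch, and TAC means stand above Sham means at each.

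Neighbouring sequences on 1 strand were summed into loci, with starts within 100 bases of the next. edgeR's quasi-likelihood test was run over the 306 of the 410 loci of the unannotated table that passed a filter on low counts. Of the 388 loci of the nuclear sequences, 287 passed the filter on low counts, 3 were higher in TAC and 0 lower at a Benjamini-Hochberg adjusted p under 0.05, while 58 had an unadjusted p under 0.05. Over all loci tested, 1.31% were called, 0.98% higher and 0.327% lower. By DESeq2, 6 loci were called higher and 7 lower. The median log2 fold change was -0.003 over the nuclear loci and -0.01 over all loci.

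The minus-strand locus in the Optn 3′ UTR, 6 sequences from chr2:5021035, had 174, 98 and 98 UMIs in TAC and 66, 33 and 17 UMIs in Sham libraries. The summed level was 49.6 ± 9.54 UPM in TAC and 15.9 ± 2.89 UPM in Sham (SD, n = 3 each), with no overlap. The log2 fold change was 1.80 with a standard error of 0.31 and an adjusted p of 0.0425 by edgeR. The plus-strand locus downstream, 3 sequences from chr2:5019964, had 131, 77 and 63 UMIs in TAC and 44, 19 and 15 UMIs in Sham libraries. Its log2 fold change was 1.88 (standard error 0.36, edgeR adjusted p = 0.0479). Its 3 sequences shared runs of 17, 21 and 20 letters with the minus-strand sequence at chr2:5021035 of the first locus. The 2 calls therefore need not be independent, and which locus or strand these RNAs came from was not tested. The remaining 3 loci at Optn had log2 fold changes of 1.38 (plus strand, antisense to the UTR), 2.43 (plus strand, first position) and 1.93 (minus strand, downstream), with edgeR adjusted p of 0.057 to 0.079. These did not pass.

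Of the 8 sequences at Optn that passed the count filter, all 8 had a positive log2 fold change and 0 passed on their own. The group was singled out after its values were seen, and some of the 8 passed the filter through their TAC counts. The shared sign is therefore no further support for a difference. The 2 with the smallest p were the minus-strand sequence at chr2:5021035 with 66, 43 and 36 UMIs in TAC and 29, 10 and 7 UMIs in Sham, and the plus-strand sequence at chr2:5019794 with 34, 23 and 13 UMIs in TAC and 3, 7 and 3 UMIs in Sham. Their log2 fold changes were 1.57 (standard error 0.36) and 2.22 (standard error 0.52), each with an edgeR adjusted p of 0.061. The sequence at chr2:5019816 on the minus strand had 59, 17 and 8 UMIs in TAC and 3, 6 and 1 UMIs in Sham, so that TAC 1 alone held most of them.

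The third locus past the threshold was a single sequence of 17 bases in the Mir149 hairpin at chr1:92850404-92850420 on the plus strand, gtgtttgtccgaggagg. It had 36, 30 and 28 UMIs in TAC and 16, 11 and 7 UMIs in Sham libraries, or 12.9 ± 0.95 UPM in TAC and 5.08 ± 0.74 UPM in Sham (SD, n = 3 each). The log2 fold change was 1.53 with a standard error of 0.30 and an edgeR adjusted p of 0.0479. None of the 3 locus calls held when any 1 of TAC 1, TAC 2, Sham 1, Sham 2 or Sham 3 was left out, with RLE factors, with library totals alone or without the count filter, each of which called 0 of the nuclear loci. By DESeq2 the Mir149 locus did not pass (adjusted p = 0.0658), while both Optn loci did. Without TAC 3 edgeR called 9 higher and 5 lower.

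Sequence by sequence, 809 of the 1263 passed the count filter, and 1 was called, lower in TAC, by edgeR over all 1244 sequences tested. The share called over all of those was 0.161%, 159 of the 809 had an unadjusted p under 0.05, and DESeq2 called 6 higher and 27 lower. In 80 of the 809 (9.89%) every TAC library stood above every Sham library and in 93 (11.5%) below, against 12.9% and 11% of all sequences tested. The median log2 fold change was -0.10 over the nuclear sequences and -0.01 over all sequences tested, and became 0.25 and 0.33 when libraries were scaled to miRNAs. Directions by this fit are therefore relative to the unannotated table. Scaling a fit to miRNAs here means miRNA totals multiplied by TMM factors, 0.877 to 0.953 in TAC and 1.047 to 1.207 in Sham libraries. UPM uses the miRNA totals alone. With those factors TAC levels rise against Sham levels, so an order of libraries in UPM need not hold.

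The called sequence was the glycine tRNA fragment of 40 bases shown above, at n-TGgcc4. It had 0, 0 and 3 UMIs in TAC and 42, 22 and 12 UMIs in Sham libraries. Pooled over libraries and scaled to miRNA UMIs, TAC held 0.038 of the Sham level, with an exact 95% interval of 0.0076 to 0.114 for counting error only, and edgeR gave an adjusted p of 0.036. The form that starts 1 base later had 6, 4 and 16 UMIs in TAC and 61, 21 and 18 UMIs in Sham, with a log2 fold change of -2.004 (standard error 0.50) and an edgeR adjusted p of 0.078. The call was lost without TAC 1, without TAC 2, without Sham 1 and with library totals alone. tRNA genes have near-identical copies, so the gene named is where the sequence was placed.

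Of the 38 tested sequences in tRNA genes or ending in CCA and without other kin, 31 had a negative and 7 a positive log2 fold change, with a median of -0.74 (22 negative and 16 positive with libraries scaled to miRNAs). The 17-base sequence ending in CCA at chr9:64020916-64020932 was among the positive ones, with 122, 69 and 34 UMIs in TAC and 119, 50 and 14 UMIs in Sham (log2 fold change 0.32, standard error 0.46). Other than the called one, none passed. The tyrosine fragment at n-TYgta9 had 3, 7 and 8 UMIs in TAC and 38, 23 and 13 UMIs in Sham, a log2 fold change of -2.11 (standard error 0.42, edgeR adjusted p = 0.06). The glutamate fragment at n-TEctc9 had 1, 5 and 22 UMIs in TAC and 67, 19 and 37 UMIs in Sham, so TAC 3 overlapped Sham 2. The valine fragment at n-TVcac6, the most abundant in a tRNA gene, had 75, 69 and 126 UMIs in TAC and 207, 120 and 86 UMIs in Sham. As a class, the 24 sequences within tRNA genes summed to 102, 140 and 260 UPM in TAC and 298, 254 and 377 UPM in Sham. TAC 3 lay just above Sham 2, and the exact 2-sided permutation test gave p = 0.2 (adjusted p = 0.714 over 10 annotation classes), where 3 against 3 libraries cannot go below 0.1.

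Mitochondrial tRNA kin had a lower summed level in TAC in UPM. The 24 sequences matched 10 mitochondrial tRNAs, 18 ended in CCA, and they summed to 301, 282 and 517 UPM in TAC and 616, 522 and 595 UPM in Sham. All TAC libraries stood below all Sham libraries in UPM, an order that need not hold with TMM factors on the miRNA totals. The kin of mt-Tv, the mitochondrial valine tRNA, shown above had 80, 52 and 102 UMIs in TAC and 351, 144 and 131 UMIs in Sham (log2 fold change -1.55, standard error 0.31, edgeR adjusted p = 0.06). A sequence of 41 bases at chr2:69355564-69355604, kin of the histidine tRNA mt-Th, did not follow, with 174, 151 and 461 UMIs in TAC and 391, 245 and 109 UMIs in Sham and a log2 fold change of 0.02. Its form 1 base shorter went the other way, with 118, 76 and 155 UMIs in TAC and 104, 65 and 25 UMIs in Sham. In UPM every TAC library stood above every Sham library for that form (log2 fold change 0.79, standard error 0.29, edgeR adjusted p = 0.146). Of the 11 that passed the filter, 9 had a negative and 2 a positive log2 fold change, and 0 passed the test. The counts of signs were the same with libraries scaled to miRNAs, where the median moved from -0.96 to -0.62.

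The mt-Rnr2 kin overlapped between groups in their summed level. They summed to 3026, 4749 and 3493 UPM in TAC and 4838, 7823 and 3141 UPM in Sham, so Sham 3 lay within the TAC range. All 67 that passed the filter had a negative log2 fold change, with a median of -0.80, and 0 passed the edgeR test. With libraries scaled to miRNAs, 56 of the 67 stayed negative. The 2 most abundant of all nuclear sequences were of this kind. The first, taatggttcgtttgtAAAA, had 1482, 1640 and 976 UMIs in TAC and 2018, 2428 and 403 UMIs in Sham. The second, placed at chr17:68287687-68287704 in an intron of L3mbtl4, had 1157, 1368 and 811 UMIs in TAC and 1744, 1918 and 368 UMIs in Sham.

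Among the listed kin the stops were sharp. Of the 77 kin, 38 matched mt-Rnr2 up to base 1390, 38 up to base 1161 and 1 up to base 1160. After base 1390 the rest of the sequence was a run of A in 34, of 1 to 14 bases, and after base 1161 in 29, of 2 to 13 bases. The 38 sequences ending at base 1390 were placed at 31 positions on 15 chromosomes. A stop or a run length was listed here only where the whole sequence could be placed on a nuclear chromosome. Stops and run lengths of the listed entries need not be those of the RNA as a whole.

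Among the A-tailed kin ending at base 1390, the mean run was shorter in each TAC library than in each Sham library. The mean run, weighted by UMIs, was 5.14, 5.11 and 5.56 bases in TAC and 5.87, 6.01 and 5.73 bases in Sham, without overlap. Runs of 8 or more A made up 14.2% ± 3.07 of these UMIs in TAC and 22.8% ± 2.40 in Sham (SD, n = 3 each). These measures were chosen after the values were seen and have no test. At base 1161 the means were 3.88, 3.95 and 4.30 bases in TAC and 4.47, 4.53 and 3.89 bases in Sham, where the groups overlapped. The sequence with the smallest p among mt-Rnr2 kin, of 25 bases with 9 terminal A at chr19:31086966, had 3, 3 and 2 UMIs in TAC and 18, 24 and 7 UMIs in Sham (log2 fold change -2.69, standard error 0.48, edgeR adjusted p = 0.059).

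**Figure D3:**
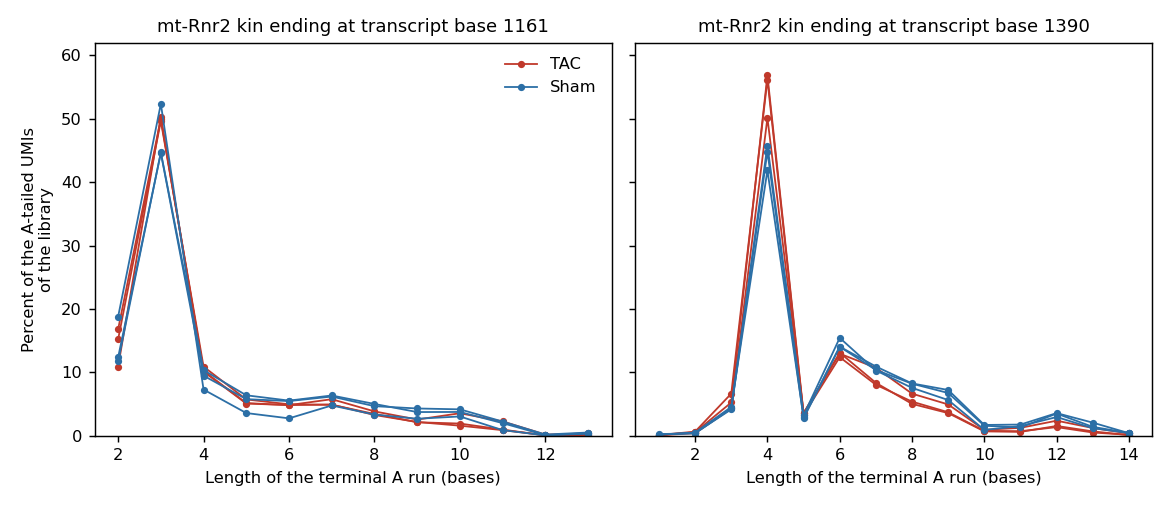
Share of the A-tailed mt-Rnr2 UMIs of each library by length of the terminal A run in bases, for sequences ending at transcript base 1161 (left) and 1390 (right); each line is 1 library. Runs of 4 are the commonest at base 1390 and runs of 3 at base 1161, and beyond 8 bases at base 1390 the Sham lines lie mostly above the TAC lines.

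Sequences in miRNA hairpins were mostly near-copies of the mature miRNA. Of the 698, 566 lay in hairpins with a RefSeq sequence, and 522 of these differed from the hairpin at 1 base, 29 at more and 15 at none. For 487 with a RefSeq mature form, 467 began at its first base, and the changed base fell in the seed in 244. The seed variants held 54.2% of the UMIs. Position 6 had 55 variants, position 2 had 49 and position 11 had 42, while no listed variant fell at bases 17 to 20. Because a variant is listed only when it could be placed and was counted as no annotated RNA, these positions are those of the listed sequences.

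**Figure D4:**
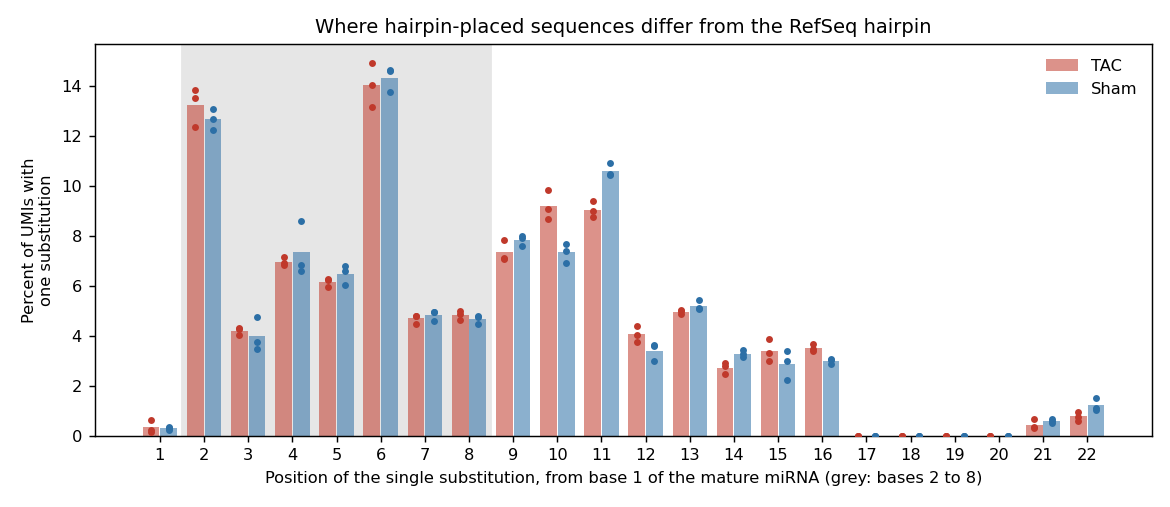
Share of UMIs by position of the single substituted base, counted from base 1 of the mature miRNA, for sequences placed in their own hairpin; bars are means of TAC (left) and Sham (right) libraries, points are libraries and the grey band marks the seed. Positions 2 and 6 are the highest in both groups, at 12.4% to 13.8% and 13.2% to 14.9% in TAC libraries.

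By UMIs, T to A came first with 24.3% from 87 variants and A to G second with 19.2% from 95 variants, the most variants of any kind. T to A took 22.6% to 24.8% in TAC libraries and 23.4% to 25% in Sham libraries. C to T took 10.7%, 10.5% and 9.70% in TAC and 7.83%, 8.18% and 6.95% in Sham, without overlap. A to T, with 6 variants, took 0.671%, 0.680% and 0.664% in TAC and 0.703%, 0.870% and 0.710% in Sham, also without overlap and in the other direction. The other 10 of the 12 kinds overlapped, and none was tested. The most counted variants were T2A of miR-26a-5p at Mir26a-1, with 214, 160 and 182 UMIs in TAC and 260, 168 and 88 in Sham, and T6A of let-7f-5p, with 212, 129 and 248 UMIs in TAC and 212, 117 and 115 in Sham. Both change the seed, and neither passed the test (edgeR adjusted p of 1.0 and 0.81).

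The hairpin class as a whole did not separate the groups. It summed to 5658, 5273 and 5956 UPM in TAC and 4718, 4899 and 6966 UPM in Sham (exact permutation p = 1.0). Within it, families differed in direction. The 13 variants at Mir206, whose miRNA is specific to skeletal muscle and rises with regeneration, summed to 4.17, 44.8 and 19.2 UPM in TAC and 108, 51.3 and 371 UPM in Sham. All TAC libraries lay below all Sham libraries, but the spread within each group was large, and the locus had a log2 fold change of -2.84 (standard error 0.90, edgeR adjusted p = 0.109). It was -1.65 without Sham 3 and -3.82 without TAC 2. The annotated miR-206-3p itself had a log2 fold change of -2.37 (standard error 0.62, edgeR adjusted p = 0.034 over all miRNAs). A fit of bulk RNA cannot tell fewer cells of a type from less RNA per cell.

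Variants at Mir10b, a HOX-cluster miRNA, summed to 35.5, 42.4 and 57.5 UPM in TAC and 119, 94.0 and 164 UPM in Sham. The locus had a log2 fold change of -1.34 (standard error 0.32, edgeR adjusted p = 0.066), next to -1.17 for annotated miR-10b-5p. In the other direction, the 31 sequences at Mir30a summed to 249, 198 and 164 UPM in TAC and 105, 109 and 88.2 UPM in Sham. Their locus had a log2 fold change of 1.19 (standard error 0.28, edgeR adjusted p = 0.066), next to 0.94 for annotated miR-30a-5p. The variant C10T was among the sequences with the smallest p, with 92, 49 and 53 UMIs in TAC and 28, 22 and 6 UMIs in Sham. Variants at Mir22 summed to 90.8, 106 and 83.2 UPM in TAC and 60.2, 60.2 and 35.6 UPM in Sham, without passing (edgeR adjusted p = 0.098). Those at Mir133b, the hairpin that shares a transcript with Mir206, had only 61 UMIs in TAC and 20 in Sham libraries (log2 fold change 1.73, standard error 0.38, edgeR adjusted p = 0.057).

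Set against the annotated miRNA of the same hairpin, the unannotated sequences were a small share at most hairpins. Of the hairpins with at least 300 UMIs, 36 had an annotated miRNA matched by name, and Mir486, Mir3107 and Snord43 were left out for want of one. In 34 of the 36, group means were 0.348% to 5.43% of the annotated UMIs, with a median of 1.05% in TAC and 0.999% in Sham over all 36. The share at Mir10b was 1.68% ± 0.20 in TAC and 1.71% ± 0.087 in Sham, and at Mir30a 1.14% ± 0.036 in TAC and 0.883% ± 0.095 in Sham (SD, n = 3 each). At Mir206 it was 0.869% ± 0.488 in TAC and 1.15% ± 0.163 in Sham. In 9 hairpins every TAC share stood above every Sham share and in 0 below. The log2 share was on average higher in TAC at 30 of the 36 and lower at 6, with a median difference of 0.15. Hairpins that share an annotated miRNA, such as Mir125b-1 and Mir125b-2 (miR-125b-5p, both among the 9), are not independent. The smallest exact permutation p was 0.1, or 0.4 after adjustment over the 36.

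**Figure D5:**
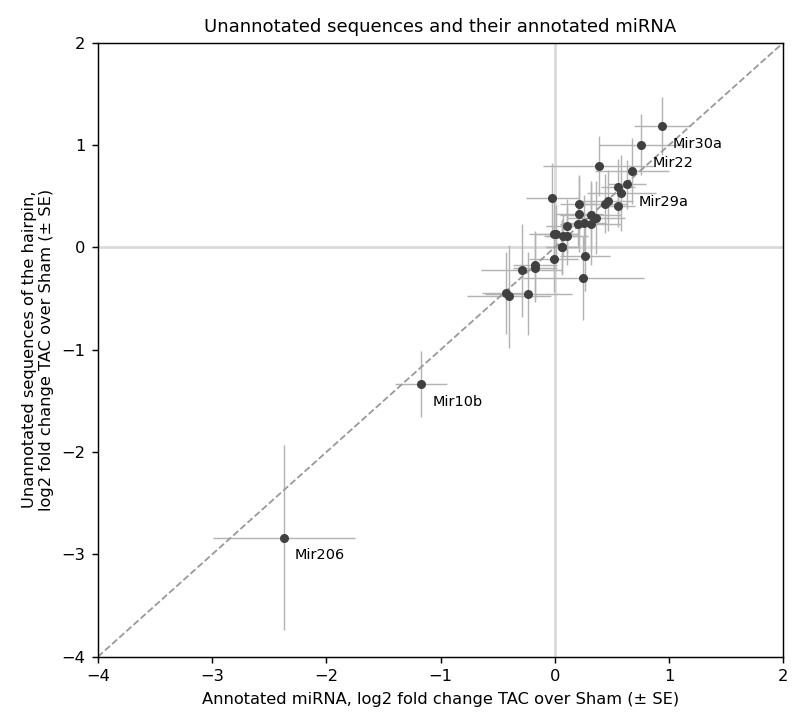
Log2 fold change (TAC over Sham) of the unannotated sequences of each of 36 hairpins against that of the most counted annotated miRNA of the hairpin, both from the same 6 libraries, with standard errors; the dashed line marks equal values. Mir206 and Mir10b lie at the low end and Mir30a at the high end, each near the line.

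The 2 hairpins outside the range of the other 34 were Mir181a-2 and Mir142. At Mir181a-2 the most counted sequence, chr2:38852785-38852806 plus, matched the RefSeq arm miR-181a-2-3p at all 22 bases, and is shown with bases 2 to 8 in capitals.
miR-181a-2-3p: aCCACCGAccgttgactgtacc
It had 426, 299 and 404 UMIs in TAC and 455, 298 and 365 UMIs in Sham libraries. The 13 sequences of this hairpin came to 15.9% ± 2.15 of the annotated UMIs in TAC and 17.6% ± 4.18 in Sham. At Mir142, an immune cell hairpin, 4 sequences came to 32.3% ± 6.21 in TAC and 46.6% ± 17.7 in Sham (SD, n = 3 each).

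The host lists followed these families. Of 47 sequences in miR-30 hairpins 24 were tested, of 31 at Mir29a 16, of 127 in let-7 hairpins 88, of 84 in miR-26 hairpins 58, of 20 in miR-10 hairpins 10 and of 73 in miR-99, miR-100 and miR-125 hairpins 41, and 0 of these were called in either direction. Their median log2 fold changes were 0.85, 0.52, 0.03, 0.32, -1.31 and 0.05 in that order, against -0.01 over all sequences tested. The medians for let-7, miR-26 and the last of these became 0.38, 0.66 and 0.38 with libraries scaled to miRNAs. The lists for miR-378, miR-181 and miR-23/27/24 held 39, 16 and 14 sequences, of which 29, 13 and 7 were tested and 0 called, with medians of 0.08, -0.12 and 0.12. The median for miR-181 became 0.24 with libraries scaled to miRNAs. The muscle-enriched hairpins (Mir133b, Mir206, Mir3107 and Mir486) held 28 sequences, of which 13 were tested and 0 called. In that list 12 had a negative and 1 a positive log2 fold change, with a median of -0.93, and 7 had an unadjusted p under 0.05. Mir206 gave 6 of these 7, with a median of -2.90 over its 6 tested. At Mir486 and Mir3107 the 7 tested had a median of -0.43, or -0.05 with 3 positive and 4 negative when scaled to miRNAs. At Mir133b 0 were tested. Over the 4 loci of the list the median log2 fold change was -0.16. The skeletal muscle markers, here Mir206 and Mir486, held 20 sequences of the same hairpins, and of 12 tested 11 had a negative log2 fold change, with a median of -1.68 and 0 called. Mir29a variants, from a family known to repress collagens, summed to 197, 187 and 177 UPM in TAC and 141.3, 130 and 138 UPM in Sham. Markers of other cells gave 71 sequences at Mir126a (endothelium), at 493 ± 26.1 UPM in TAC and 509 ± 66.8 in Sham, and 45 at Mir143 and Mir145a (smooth muscle), at 458 in TAC and 425 in Sham. The immune cell list was 4 sequences at Mir142, at 55.5 ± 20.2 UPM in TAC and 77.3 ± 33.0 UPM in Sham with overlap. All 4 had a negative log2 fold change, with a median of -0.78, 2 had an unadjusted p under 0.05 and 0 were called. With libraries scaled to miRNAs 3 of the 4 were negative. The hairpins of liver, epithelium and kidney, erythroid and fibroblast miRNAs held 0 sequences, and the neural list held 1. Muscle structural genes held 2. The intronic one in Atp2a1, which encodes the calcium pump of fast fibres, had 40, 26 and 30 UMIs in TAC and 18, 9 and 11 UMIs in Sham (log2 fold change 1.14, standard error 0.36, edgeR adjusted p = 0.102).

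Kin of miR-1 placed away from both miR-1 loci were scattered over 93 positions on 20 chromosomes. Of the 110, 20 differed from the miR-1 hairpin by 1 edit, 52 by 2 and 38 by 3. Their UMIs were 0.412%, 0.414% and 0.418% of those of miR-1a-3p in TAC libraries and 0.408%, 0.399% and 0.359% in Sham libraries. This share, chosen after its values were seen and without a test, was higher in every TAC library than in every Sham library. Of the 80 tested 0 were called, and their median log2 fold change, -0.05, became 0.28 with libraries scaled to miRNAs. The one with the smallest p, of 19 bases at chr7:85810265 outside annotated genes, had 113, 105 and 92 UMIs in TAC and 58, 33 and 12 UMIs in Sham, with a log2 fold change of 1.55 (standard error 0.28, edgeR adjusted p = 0.059).

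At the 18S ribosomal RNA copy on chromosome 17, which RefSeq names Rn18s-rs5 (chr17:39846354-39848202), 29 sequences summed to 197, 299 and 307 UPM in TAC and 378, 357 and 612 UPM in Sham. All TAC libraries lay below all Sham libraries in UPM, an order that need not hold with TMM factors on the miRNA totals. Of the 20 tested 17 had a negative log2 fold change (15 with libraries scaled to miRNAs) and 0 were called. The most counted began 1 base before the RefSeq start.
chr17:39846353-39846387 plus: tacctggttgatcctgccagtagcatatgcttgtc
It had 128, 122 and 103 UMIs in TAC and 229, 168 and 94 UMIs in Sham. The fragment of Rmrp, the RNA of the RNase MRP complex, at chr4:43493030-43493059 minus was agctcgctctgaaggcctgtttcctaggct. It had 198, 120 and 408 UMIs in TAC and 304, 101 and 157 UMIs in Sham, and the groups overlapped (log2 fold change 0.14, standard error 0.47).

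Summed over all 1263 sequences, the level was 13735, 14542 and 15471 UPM in TAC and 15578, 18311 and 16010 UPM in Sham. Each TAC library lay below each Sham library in UPM (exact 2-sided permutation p = 0.1, the smallest possible). This order need not hold with TMM factors on the miRNA totals. In the fit scaled that way, the median log2 fold change of the nuclear sequences was 0.25. Among the 10 annotation classes, only the 131 sequences antisense to a gene had groups that did not overlap in UPM. They stood at 1265 ± 90.9 UPM in TAC and 1678 ± 99.1 in Sham (SD, n = 3 each, exact permutation p = 0.1, adjusted p = 0.714). That class holds all 29 of the 18S fragments, which lie opposite an annotated transcript. The 136 intronic sequences summed to 2813 ± 140 UPM in TAC and 3217 ± 658 in Sham, and those outside genes to 3372 ± 172 in TAC and 4250 ± 1136 in Sham, with overlap in both (exact permutation p = 0.4 and 0.3).

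Among the sequences of smallest p, one of 21 bases in the Mir26a-2 hairpin had 21, 16 and 14 UMIs in TAC and 5, 5 and 3 UMIs in Sham (log2 fold change 1.80, standard error 0.39, edgeR adjusted p = 0.060). One of 18 bases antisense to Gpm6a, equal to a sequence listed on the mitochondrial chromosome, had 6, 6 and 6 UMIs in TAC and 23, 31 and 25 UMIs in Sham (log2 fold change -2.38, standard error 0.48, edgeR adjusted p = 0.060). The groups did not overlap in either, and neither passed the test.

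The most abundant members of the smaller classes overlapped between the groups. In the rRNA gene class, one at the 5S gene n-R5s2 had 12, 14 and 7 UMIs in TAC and 38, 9 and 10 UMIs in Sham. Among other small RNA genes, one of 45 bases at Gm24407 had 45, 82 and 87 UMIs in TAC and 227, 93 and 24 UMIs in Sham. Antisense to a gene, the mt-Rnr2 kin at Stpg2 had 230, 260 and 217 UMIs in TAC and 331, 315 and 106 UMIs in Sham. These 3 had log2 fold changes of -0.83, -0.56 and -0.16 and did not pass the test. Near a hairpin, one at Mir150 had 8, 3 and 8 UMIs in TAC and 12, 4 and 5 UMIs in Sham, below the filter.

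The most abundant members of the remaining hairpin lists also overlapped. At Mir486 it had 54, 45 and 104 UMIs in TAC and 74, 51 and 57 UMIs in Sham. At Mir100 it had 112, 83 and 138 UMIs in TAC and 116, 45 and 52 UMIs in Sham. At Mir23b it had 14, 14 and 17 UMIs in TAC and 18, 11 and 8 UMIs in Sham. None of these 3 passed the edgeR test, with adjusted p of 0.93, 0.48 and 0.87. At Mir142, the immune cell list, it had 98, 82 and 49 UMIs in TAC and 95, 120 and 33 UMIs in Sham (edgeR adjusted p = 0.78), and at Mir128-1, the neural list, 5, 3 and 12 UMIs in TAC and 6, 9 and 3 UMIs in Sham, below the filter.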

How the data were processed

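Small RNA of mouse skeletal muscle (3 TAC, 3 Sham) was read with a UMI kit. The deposited workbook holds whole-number counts of reads and of UMIs per sequence or miRNA, per the file headers; the submitters' processing notes name GRCm38, and the aligner is not given in the sources used here. UMI counts were used, with no further normalization by the authors. The members and the gene lists were chosen with earlier results of these data known. Positions in the table count from 0 and are printed counting from 1. Classes came from GENCODE M21 and RefSeq, and kin from edlib 1.3.9.post1 (Python 3.11.15). The kin groups were defined after seeing the sequences, and the Optn group was set by position after its values were seen.

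edgeR 4.0.16 in R 4.3.3 (TMM, filterByExpr with a minimum count of 10 and total of 15) was fitted on the whole unannotated table, by sequence and by locus. DESeq2 1.42.0 was an alternative. Sums were compared with exact permutation tests (scipy 1.17.1). Named were called members and loci, the 5 smallest p in each direction, the 8 most abundant, and the most abundant of each class and host list; others named were chosen after their values were seen. On simulated counts, all 8-fold changes were recovered by sequence and 30.5% of 2-fold changes, among 1295 sequences.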

Additional observations from a re-analysis of the deposited data

How the results depend on the processing

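Counts of calls depended on the setting. For sequences higher and lower in TAC, edgeR gave 0 and 1; DESeq2 gave 6 and 27, miRNA-based library sizes 33 and 7, and the fit with the replicate number as a block 21 and 63, while library totals alone left 0 lower. For loci higher and lower, edgeR gave 3 and 0; DESeq2 gave 6 and 7, the replicate block 8 and 7, miRNA-based library sizes 7 higher, and RLE factors, library totals alone and no filter each 0 higher. Leaving out 1 library gave 0 to 9 sequences higher and 0 to 29 lower, and 0 to 9 loci higher and 0 to 5 lower; the most sequence calls came without Sham 3 and the most locus calls without TAC 3. The cause was not tested. Deviations of same-numbered libraries correlated by 0.0853, 0.161 and 0.224 over sequences and by 0.185, 0.0445 and 0.281 over loci. With 3 libraries per group, each centred on its group mean, these values cannot settle whether libraries were paired. The labels do not state a pairing, so the block is not a pairing the design gives. miRNA-based library sizes moved the median log2 fold change of the members from -0.10 to 0.25. Leaving out 1 library turned the sign of small log2 differences: the hairpin class ranged from -0.076 to 0.23, the ribosomal RNA genes from -0.50 to 0.036, noncoding or pseudogene exons from -0.75 to 0.38, and the ratio to the annotated miRNA from -0.12 to 0.032 at Mir10b, -0.044 to 0.018 at Mir26a-1 and -0.30 to 0.045 at Mir181a-2. The sum of all members kept its direction in all 11 alternatives, none of which put TMM factors on the miRNA totals. Those factors are below 1 in every TAC and above 1 in every Sham library, and raise TAC against Sham. Sham 3, at 18881 UMIs, limits low counts most.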
